A study of Mus musculus with 10 samples.

Results

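A set of 9 genes of lipid-sensing transcription in sorted mouse retinal cells is described here: the liver X receptors Nr1h2 (LXRβ) and Nr1h3 (LXRα), the retinoid X receptors Rxra and Rxrb, the peroxisome proliferator-activated receptors Ppara, Ppard and Pparg, and the PGC-1 coactivators Ppargc1a and Ppargc1b. They were taken by gene symbol from a table of 21869 genes, which held all 9. RNA had been sequenced from 10 samples of live retinal cells that were positive for CD11b and intermediate for CD45, a gate the labels call microglia. One group was the CD36-positive part of that gate (5 libraries, numbered 1, 2, 3, 4 and 7) and the other the CD36-negative part (5 libraries, numbered 1, 2, 4, 7 and 8). The sample titles call all 10 wild type (WT). The protocol describes intravenous sodium iodate (NaIO3) at 20 mg/kg, or its PBS vehicle, with eyes collected 7 days later, and it does not say which of these the sorted samples received. Age, sex and strain are not given in the sources used here. CD36 is a scavenger receptor that takes up fatty acids and oxidised lipoproteins, and its gene is a textbook target of PPARγ, so the sort divides cells by a product of the pathway examined.

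LXRs are switched on by oxysterols and raise genes of cholesterol efflux and lipoprotein handling. PPARs are switched on by fatty acids and their derivatives and raise genes of fatty acid uptake, storage and oxidation. Both families bind DNA as partners of an RXR, at repeats of the hexamer AGGTCA, and PGC-1 coactivators join them on the mitochondrial and oxidative part of the programme. In macrophages and microglia these receptors are known for coupling lipid load to efflux and for dampening inflammatory genes.

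Promoters are shown for the 3 receptor genes with the most negative log2 fold changes among those tested, and for Cd36, the gene of the sort. Each is the 250 bases before a start site on the gene's own strand. RefSeq promoters on GRCm38.p6 were used for 8 of the 9 genes, with 13 start sites in all. The promoter of Ppargc1b was not examined. Capitals mark the nuclear receptor half-site AGGTCA, the GC box GGGCGG of Sp1-type factors and the ETS core CCGGAA, each searched on both strands. The ETS core was added to the search after these sequences had been read.
Nr1h2, chr7:44553966-44554215, minus strand: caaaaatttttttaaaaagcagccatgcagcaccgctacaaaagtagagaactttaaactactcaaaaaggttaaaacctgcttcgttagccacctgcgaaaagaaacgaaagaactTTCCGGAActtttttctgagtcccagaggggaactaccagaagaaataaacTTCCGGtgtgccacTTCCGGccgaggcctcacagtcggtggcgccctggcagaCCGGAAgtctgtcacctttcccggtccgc
Nr1h3, chr2:91195117-91195366, minus strand, 1 of its start sites: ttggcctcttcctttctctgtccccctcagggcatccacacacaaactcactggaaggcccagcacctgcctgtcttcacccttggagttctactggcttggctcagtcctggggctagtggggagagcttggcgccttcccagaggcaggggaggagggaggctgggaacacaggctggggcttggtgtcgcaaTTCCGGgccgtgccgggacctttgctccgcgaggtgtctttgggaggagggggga
Pparg, chr6:115362099-115362348, plus strand, 1 of 3 start sites: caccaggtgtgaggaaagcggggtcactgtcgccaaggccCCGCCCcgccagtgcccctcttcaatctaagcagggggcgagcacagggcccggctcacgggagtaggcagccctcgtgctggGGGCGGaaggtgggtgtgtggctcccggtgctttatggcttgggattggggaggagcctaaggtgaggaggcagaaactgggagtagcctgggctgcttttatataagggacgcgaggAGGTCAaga
Cd36, chr5:17835897-17836146, minus strand: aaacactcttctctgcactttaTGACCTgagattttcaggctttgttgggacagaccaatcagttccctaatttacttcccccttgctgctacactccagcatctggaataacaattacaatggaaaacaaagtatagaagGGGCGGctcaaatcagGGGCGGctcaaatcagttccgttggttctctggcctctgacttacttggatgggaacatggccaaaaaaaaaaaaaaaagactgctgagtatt
The Nr1h2 window held 5 ETS cores and no AGGTCA. Its first pair, at -133 and -131, overlaps on opposite strands, and the others start at -82, -68 and -29. Of 32851 mouse promoter windows of this length, 12% held CCGGAA at all and 7 windows (0.0213%) held it at least 5 times. That cut is the number in the Nr1h2 window itself, so the share is a description and not a test. CCGGAA was found in 4 of the 13 member windows, among them overlapping windows of Nr1h3. The Nr1h3 window held 1 ETS core, and the Pparg window held a half-site at -9 to -4 and 2 GC boxes. In the Cd36 window the half-site lay at -228 to -223, with GC boxes at -109 and -93. AGGTCA was found in 3 of the 13 member windows against 14.0% of all windows, and GGGCGG in 7 of 13 against 32.7%. The PPAR:RXR arrangement, AGGTCA and a second AGGTCA on the same strand with 1 base of any kind between, was in 0 of the 13 member windows and 0.0335% of all windows. The LXR:RXR arrangement, the same repeat with 4 bases between, was likewise in 0 of 13, against 0.0152%. These matches describe letters in a short window and say nothing of which factors bind there.

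Library totals ran from 5001665 to 13250961 counts, and 13508 to 15059 genes had a count above 0. A count of 3 corresponded to between 0.238 and 0.558 CPM, counts scaled to a common library size. CD36-positive library 1 had the lowest total and stood apart on the second principal component of log2 CPM, and CD36-positive library 3 stood apart on the third. The summed CPM of 3 Y-linked genes was 184 to 324 in CD36-positive libraries 1, 2 and 3 and CD36-negative libraries 1 and 2, and 18.4 to 57.6 in the other five, so both groups held libraries of each kind. Cd36 messenger RNA followed the sort: it was 219 ± 39.9 CPM (SD, n = 5) in CD36-positive and 50.3 ± 5.51 CPM (SD, n = 5) in CD36-negative libraries, a log2 fold change of 2.12 (SE 0.18, adjusted p = 1.45e-06, edgeR's quasi-likelihood test with Benjamini-Hochberg adjustment). The 15 microglial markers, P2ry12 and Tmem119 among them, all had counts in both groups, summed to 9895 to 21960 CPM in CD36-positive and 9924 to 23990 CPM in CD36-negative libraries, and none passed the test. By DESeq2 likewise 0 passed, and at an unadjusted p under 0.05 there was 1 higher and 3 lower. Markers of several other cell types moved with the groups: 14 of 16 tested dendritic cell markers fell (summed 440 to 786 CPM against 1512 to 1833 CPM), as did 8 of 9 tested neutrophil markers (84.7 to 194 against 319 to 860 CPM), with Retnlg, Ngp and G0s2 at 0 in all CD36-positive libraries. Of the monocyte markers 8 of 15 fell and 1 rose (3400 to 9826 against 5730 to 10670 CPM), and 6 of 9 tested T and NK cell markers fell (17.9 to 51.7 against 137 to 453 CPM), with Prf1 at 0 in all CD36-positive libraries. Of 10 tested markers of border and perivascular macrophages 3 rose (Ms4a7, Pf4 and Stab1, by log2 fold changes of 1.37, 1.29 and 0.61). F13a1 fell and 6 did not pass. Of these, Cd163 (-3.30), Cbr2 (-1.79), Folr2 (-1.51) and Mrc1 (-0.01) had negative values, Ccl24 (0.72) and Clec4n (0.17) positive ones. At an unadjusted p under 0.05 there were 3 higher and 4 lower, and DESeq2 called 3 higher and 3 lower. Without CD36-positive libraries 1 and 3, 2 rose and 2 fell, with a median log2 fold change of -0.76. The list summed to 1336 to 1623 CPM in CD36-positive and 602 to 1326 CPM in CD36-negative libraries. Ms4a7 alone had means of 799 and 310 CPM. Of the B cell markers 3 were tested and 0 passed (smallest adjusted p = 0.414, Cd22, edgeR). The part of these cells in any difference given here was not tested, and in such bulk samples fewer cells of a type and less RNA per cell cannot be told apart.

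Of the 9 genes, 8 passed the filter on low counts and were tested, and Ppara did not. Nr1h2 fell in CD36-positive cells, 0 of the 8 rose and 7 did not pass an adjusted p of 0.05. Over all 11596 genes tested, 4.74% were called lower and 2.61% higher (7.36% in either direction), beside which 1 of 8 lower is a single gene. At an unadjusted p under 0.05, which 21.3% of all genes reached in either direction, 4 of the 8 were lower (Nr1h2, Nr1h3, Rxrb and Pparg) and 0 higher. DESeq2 called 3 lower (Nr1h2, Nr1h3 and Pparg) and 0 higher, and limma voom called 1 lower and 0 higher. Over all genes DESeq2 called 743 lower and 533 higher, and limma voom 606 and 330, beside 550 and 303 by edgeR. The median log2 fold change of the 8 was -0.77, beside 0.02 over all genes tested, with 5 negative and 3 positive values. The values of all 9 genes in every library are plotted with their means and SD.

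**Figure D1:**
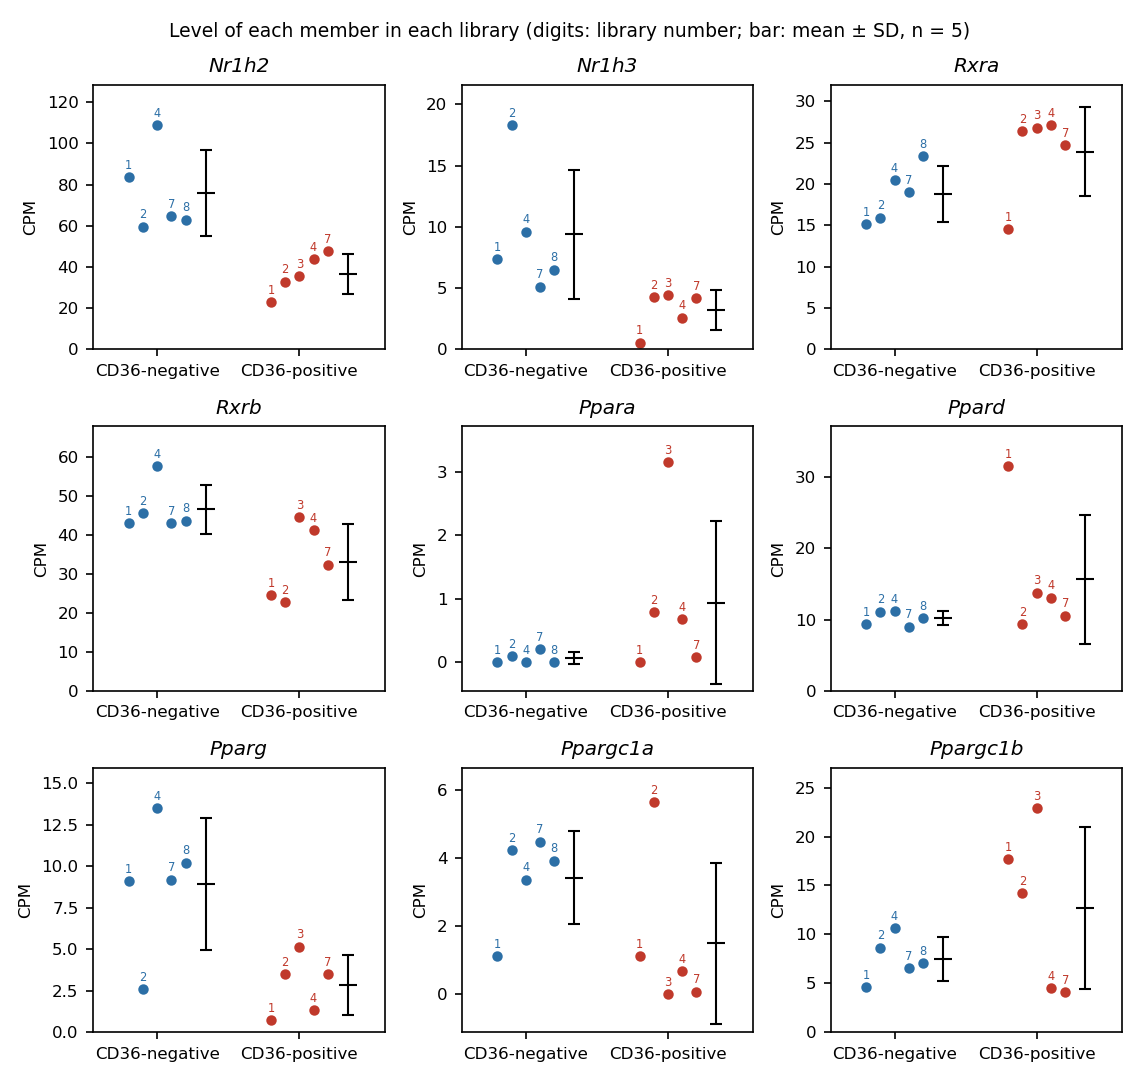
Levels of the 9 genes in each library, in CPM on a linear axis with its own scale per gene, for CD36-positive and CD36-negative cells, with digits for library numbers and the mean and SD of 5 libraries beside the points. For Nr1h2 and Nr1h3 the points of the 2 groups do not overlap; for the other genes they do.

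Nr1h2 encodes LXRβ, the widely expressed LXR (GRCm38 chromosome 7, 44549616 to 44553951, minus strand, protein coding). Its level was 83.7, 59.6, 109, 64.6 and 63.0 CPM in CD36-negative libraries 1, 2, 4, 7 and 8, and 22.9, 32.9, 35.7, 43.8 and 47.8 CPM in CD36-positive libraries 1, 2, 3, 4 and 7. Every CD36-positive library lay below every CD36-negative one. The means were 36.6 ± 9.75 and 76.0 ± 20.7 CPM (SD, n = 5 each), and the log2 fold change was -1.05 (SE 0.24, 95% interval -1.55 to -0.55, adjusted p = 0.0104 by edgeR's quasi-likelihood test). Leaving out any 1 library gave -1.17 to -0.90, with adjusted p between 0.00813 and 0.0392. Within the 5 libraries of high Y-linked level the value was -1.28 (adjusted p = 0.107, edgeR), and within the 5 of low level -0.78 (adjusted p = 0.125, edgeR): both were negative and neither passed.

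Nr1h3 encodes LXRα, the LXR known for its strong expression in liver and macrophages and for raising its own gene (chromosome 2, 91184061 to 91202834, minus strand, protein coding). It was measured at 7.38, 18.3, 9.61, 5.12 and 6.52 CPM in CD36-negative libraries 1, 2, 4, 7 and 8, and at 0.558, 4.29, 4.44, 2.59 and 4.2 CPM in CD36-positive libraries 1, 2, 3, 4 and 7. The groups did not overlap, in 2 of these 8 genes, both lower, against 8.42% of all genes tested in either direction and 5.83% lower. CD36-negative library 2 stood highest, and the lowest value, in CD36-positive library 1, rested on 3 counts. The log2 fold change was -1.53 (SE 0.58, 95% interval -2.75 to -0.31, adjusted p = 0.126, edgeR), which did not pass. DESeq2's adjusted p was 0.0497. Within the libraries of high and of low Y-linked level it was -2.08 and -1.05 (adjusted p = 0.348 and 0.525, edgeR). Of the gene's exonic bases 1.4% are shared with the same-strand gene Gm13783.

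The share of LXR counts that came from Nr1h3 ran from 2.38% to 11.6% in CD36-positive libraries and from 7.34% to 23.5% in CD36-negative ones. On the log2 scale the ratio of Nr1h3 to Nr1h2 counts (0.5 added to each) was -3.72 ± 0.92 and -3.12 ± 0.81 (SD, n = 5 each). The difference of -0.60 did not exceed the spread between libraries (two-sided exact permutation test, p = 0.365; 0.365 after Benjamini-Hochberg adjustment over 3 ratios). It was -0.24 without CD36-negative library 2, and likewise -0.24 without CD36-positive library 1, and ran to -0.80 as the other libraries were left out in turn. A different change of the LXR genes relative to each other was therefore not detectable in 5 against 5 libraries.

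Rxra encodes RXRα, the usual partner of LXRs and PPARs in myeloid cells (chromosome 2, 27676440 to 27762957, plus strand, protein coding). Its level was 15.2, 15.9, 20.5, 19.0 and 23.4 CPM in the CD36-negative libraries in order of number, and 14.5, 26.4, 26.8, 27.1 and 24.7 CPM in the CD36-positive ones. All CD36-positive libraries except library 1, which was the lowest of all 10, lay above every CD36-negative library. Its log2 fold change was 0.35 (SE 0.26, 95% interval -0.20 to 0.90, adjusted p = 0.479, edgeR) and did not pass.

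Rxrb encodes RXRβ, a broadly expressed partner (chromosome 17, 34031812 to 34038399, plus strand, protein coding). It stood at 43.0, 45.5, 57.5, 43.0 and 43.5 CPM in the CD36-negative libraries and at 24.6, 22.7, 44.6, 41.2 and 32.3 CPM in the CD36-positive ones. CD36-positive library 3 reached into the CD36-negative range, and the other CD36-positive libraries lay below it. Rxrb had a log2 fold change of -0.49 (SE 0.23, 95% interval -0.97 to -0.01, adjusted p = 0.222, edgeR), not past the threshold.

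Set against each other within a library, where scaling cancels, the RXR genes separated the groups. The log2 ratio of Rxra to Rxrb was -1.50, -1.51, -1.49, -1.18 and -0.89 in CD36-negative libraries 1, 2, 4, 7 and 8, and -0.76, 0.22, -0.73, -0.60 and -0.39 in CD36-positive libraries 1, 2, 3, 4 and 7. The groups did not overlap. The means were -0.45 ± 0.40 and -1.31 ± 0.27 (SD, n = 5 each), a difference of 0.86 (two-sided exact permutation test, p = 0.00794, the smallest this design allows; 0.0238 after adjustment over 3 ratios). Neither gene passed by itself, though Rxrb had an unadjusted p of 0.0454 (edgeR), and the ratio cannot say which of them moved. With a block over the description numbers shared by both groups, the exact sign-flip p was 0.125. The part of other cell types in this shift was not tested.

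**Figure D2:**
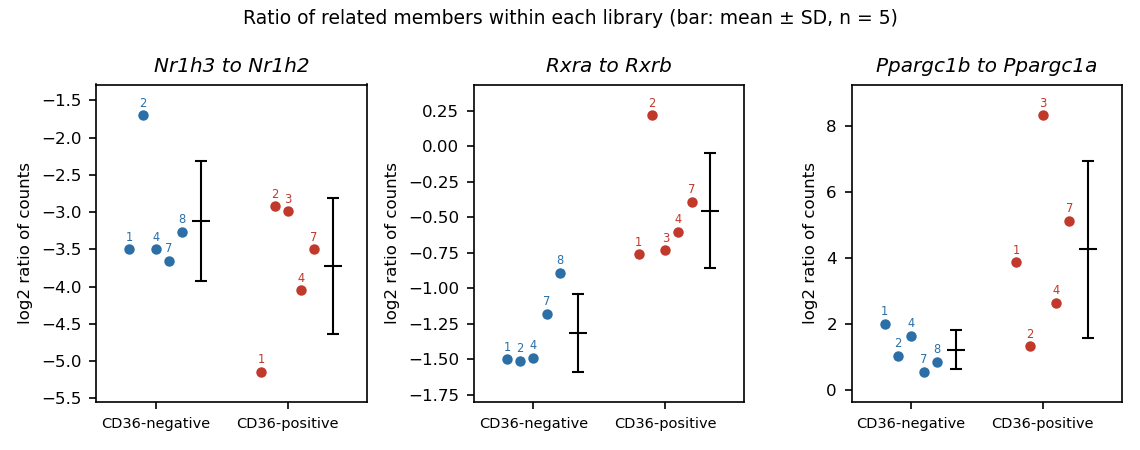
Log2 ratios of counts within each library for 3 gene pairs (Nr1h3 to Nr1h2, Rxra to Rxrb, Ppargc1b to Ppargc1a), by group, with mean and SD of 5 libraries. Only for Rxra to Rxrb do the groups not overlap, with means of -0.45 in CD36-positive and -1.31 in CD36-negative libraries.

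Ppara encodes PPARα, the receptor of fatty acid oxidation in liver and muscle (chromosome 15, 85734983 to 85802819, plus strand, protein coding). It was close to the limit of detection and was not tested: 0, 0.101, 0, 0.209 and 0 CPM in the CD36-negative libraries and 0, 0.790, 3.15, 0.676 and 0.0792 CPM in the CD36-positive ones. The counts summed to 3 in CD36-negative and 36 in CD36-positive libraries, a ratio of 14.6 per total count with a 95% exact binomial interval of 4.61 to 74.1 that covers counting error only. CD36-positive library 3 alone held 22 of the 36 counts (61.1%). With no filter on low counts edgeR gave an adjusted p of 0.242.

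Ppard encodes PPARδ, the widely expressed PPAR (chromosome 17, 28232700 to 28301474, plus strand, protein coding). It was even across CD36-negative libraries, at 9.35, 11.1, 11.2, 8.98 and 10.2 CPM. In CD36-positive libraries it was 31.5, 9.37, 13.8, 13.1 and 10.5 CPM, so library 1 was far above the rest and libraries 2 and 7 lay within the CD36-negative range. The log2 fold change of 0.62 (SE 0.37, 95% interval -0.16 to 1.39, adjusted p = 0.360, edgeR) did not pass and was 0.19 without CD36-positive library 1. It was 0.78 within the libraries of high and 0.22 within those of low Y-linked level (adjusted p = 0.664 and 0.888, edgeR).

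Pparg encodes PPARγ, the receptor of fat storage and of macrophage lipid uptake (chromosome 6, 115360951 to 115490399, plus strand, protein coding). Its level was 9.09, 2.62, 13.5, 9.19 and 10.2 CPM in the CD36-negative libraries and 0.744, 3.50, 5.16, 1.35 and 3.49 CPM in the CD36-positive ones. CD36-negative library 2 lay inside the CD36-positive range, and the other CD36-negative libraries lay above it. The log2 fold change was -1.63 (SE 0.60, 95% interval -2.91 to -0.36, adjusted p = 0.118, edgeR), and DESeq2's adjusted p was 0.0443. It was -0.94 within the libraries of high and -2.16 within those of low Y-linked level (adjusted p = 0.806 and 0.0719, edgeR). The value of Pparg was thus negative and not past the test in the cells sorted for CD36, whose gene is its textbook target. These are messenger RNA levels and do not measure receptor activity. A link between Pparg and Cd36 was not tested.

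Ppargc1a encodes PGC-1α, the inducible coactivator of mitochondrial biogenesis (chromosome 5, 51454250 to 51567726, minus strand, protein coding). It was scarce, at 1.12, 4.23, 3.37, 4.49 and 3.93 CPM in the CD36-negative libraries and 1.12, 5.65, 0, 0.676 and 0.0792 CPM in the CD36-positive ones. CD36-positive library 2 was the highest of all 10, while 3 of the other CD36-positive libraries lay below the lowest CD36-negative value. Its log2 fold change was -1.18 (95% interval -3.28 to 0.92, adjusted p = 0.546, edgeR), and -2.92 without CD36-positive library 2, which did not pass either. It was -0.27 within the libraries of high and -3.40 within those of low Y-linked level (adjusted p = 0.969 and 0.172, edgeR), and -2.53 by limma voom (adjusted p = 0.189).

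Ppargc1b encodes PGC-1β, a relative of PGC-1α linked to oxidative metabolism in macrophages. It was 4.63, 8.66, 10.6, 6.58 and 7.10 CPM in the CD36-negative libraries and 17.7, 14.2, 22.9, 4.51 and 4.12 CPM in the CD36-positive ones. CD36-positive libraries 1, 2 and 3, those of high Y-linked level, were above every CD36-negative library, and CD36-positive libraries 4 and 7, of low Y-linked level, were below all of them. The log2 fold change over all libraries was 0.75 (SE 0.49, 95% interval -0.28 to 1.78, adjusted p = 0.411, edgeR). It was 1.41 within the libraries of high and -0.91 within those of low Y-linked level (adjusted p = 0.335 and 0.546, edgeR), so its direction differed between the subsets, and that difference was not tested.

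The log2 ratio of Ppargc1b to Ppargc1a was 2.01, 1.03, 1.64, 0.55 and 0.85 in the CD36-negative libraries and 3.88, 1.32, 8.33, 2.64 and 5.13 in the CD36-positive ones. CD36-positive library 2 fell within the CD36-negative range and the other four lay above it. The means were 4.26 ± 2.68 and 1.21 ± 0.60 (SD, n = 5 each), a difference of 3.04 (two-sided exact permutation test, p = 0.0238; 0.0357 after adjustment over 3 ratios). The highest value, in CD36-positive library 3, is set against 0 counts of Ppargc1a and so rests on the 0.5 added to each count. Without CD36-negative library 2, 7 or 8 the exact permutation p was 0.0556, 0.0635 and 0.0635.

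**Figure D3:**
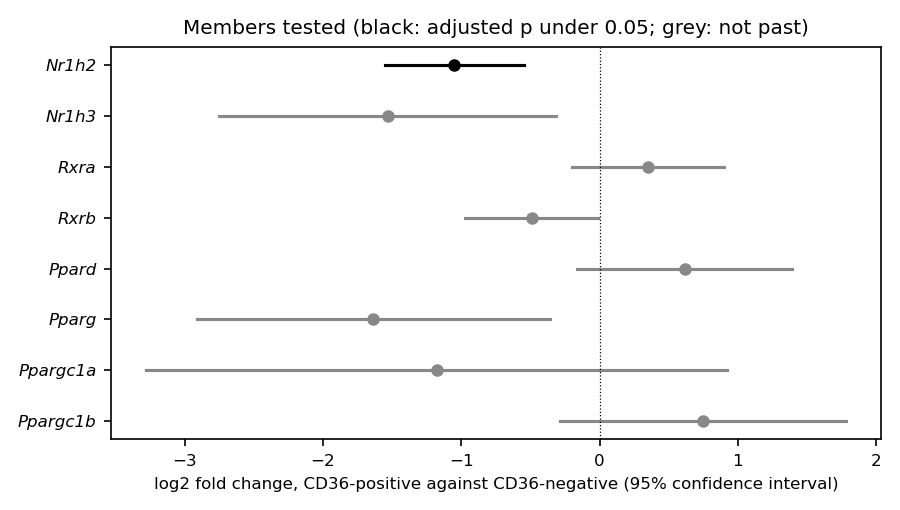
Log2 fold change of each tested gene, CD36-positive over CD36-negative, with its 95% interval from edgeR's quasi-likelihood fit. Nr1h2, at -1.05, is the only gene past an adjusted p of 0.05.

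Levels were compared between genes only as CPM per kilobase of exon. In CD36-negative libraries Nr1h2 was the most abundant (22.7 ± 6.17 CPM per kilobase, SD, n = 5), followed by Rxrb (11.7 ± 1.56), and these did not overlap each other or the next gene. Nr1h3 (3.73 ± 2.09), Rxra (3.44 ± 0.616) and Pparg (3.02 ± 1.34) came next and overlapped as neighbours, as did Ppargc1b (1.89 ± 0.566) and Ppard (1.35 ± 0.131) after them. Ppargc1a (0.520 ± 0.206) and Ppara (0.0161 ± 0.0242) lay below, each apart from its neighbours. In CD36-positive libraries the order of level per kilobase was Nr1h2 (10.9 ± 2.91), Rxrb (8.32 ± 2.45), Rxra (4.38 ± 0.977), Ppargc1b (3.18 ± 2.07), Ppard (2.08 ± 1.2), Nr1h3 (1.28 ± 0.662), Pparg (0.965 ± 0.607), Ppara (0.245 ± 0.335) and Ppargc1a (0.228 ± 0.358). There all neighbours overlapped in range except Rxrb and Rxra. In both groups LXRβ and RXRβ transcripts led, and Nr1h3 and Pparg ranked 3 and 5 in CD36-negative but 6 and 7 in CD36-positive libraries.

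For the tested genes with a mean log2 CPM of at least 3, the most alike genes across the 10 libraries were named by Pearson r among 9278 genes, as a description in which all genes share the libraries and their group difference. Nr1h2 was most like Cds2 (r = 0.973), an enzyme of phospholipid synthesis, Pirb (0.966), an inhibitory immunoglobulin-like receptor, and Nfkb2 (0.965), an NF-κB subunit. Rxra was most like Zbp1 (0.944) and Oasl1 (0.942), both known interferon-inducible genes, and Tmed3 (0.939). Rxrb was most like Prkab2 (0.925), Rnf166 (0.914) and Fbxo31 (0.912). Ppard was most like Ddx17 (0.978), Itpripl2 (0.975) and 1110059G10Rik (0.961), a likeness that shares the high value of CD36-positive library 1. Ppargc1b was most like Dcaf10 (0.914), Phf2 (0.907) and Rora (0.904), itself a nuclear receptor.

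Most target genes of the LXRs did not pass, and those called lay in both directions. Of 20 listed LXR targets 17 were tested, 2 rose, 2 fell and 13 did not pass, with a median log2 fold change of 0.19 beside 0.02 over all genes. The shares called over all genes were 2.61% higher and 4.74% lower. Without CD36-positive libraries 1 and 3, 3 rose and 2 fell of 18 tested, with a median of 0.04. Abca1, the cholesterol efflux pump, was 193, 163, 109, 148 and 138 CPM in CD36-negative and 558, 299, 290, 236 and 267 CPM in CD36-positive libraries. Each CD36-positive library lay above all CD36-negative ones, and Abca1 rose by a log2 fold change of 1.14 (SE 0.23, adjusted p = 0.00520, edgeR). Lpl, lipoprotein lipase, which is also a PPAR target, rose by 0.97 (SE 0.20, adjusted p = 0.00599, edgeR), from 106 ± 15.6 to 209 ± 61.3 CPM (SD, n = 5 each). Smpdl3a, a phosphodiesterase of the sphingomyelinase family, was 395, 579, 324, 304 and 290 CPM in CD36-negative and 108, 141, 118, 69.9 and 113 CPM in CD36-positive libraries. It fell, without overlap, to a log2 fold change of -1.78 (SE 0.23, adjusted p = 6.97e-05, edgeR). Pltp, the phospholipid transfer protein, fell to -1.40 (SE 0.28, adjusted p = 0.00398, edgeR), from 157 ± 63.0 to 59.2 ± 18.5 CPM (SD, n = 5 each). Abcg1, the partner of Abca1 in efflux, had a value of -0.03, Apoe 0.30, Mylip, which degrades the LDL receptor, 0.25, and Srebf1, the lipogenic regulator, -0.25, and none of these passed. The same holds for Fasn, fatty acid synthase, at -0.93 (adjusted p = 0.0528, edgeR).

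Of 31 listed PPAR targets 30 were in the table and 26 were tested, with Ucp3 and Cidec at 0 in every library. Cd36, the gene of the sort, and Lpl rose, 0 fell and 24 did not pass, with a median of -0.19. At an unadjusted p under 0.05 there were 2 higher and 1 lower, and DESeq2 and limma voom each called 2 higher and 0 lower. Cd36 was among those higher each time. Plin2, which coats lipid droplets and stood on more than one line of the table, had a log2 fold change of 0.17, Angptl4, a secreted lipase inhibitor, -0.18, Cpt1a, which admits fatty acids to mitochondria, -0.30, and Ucp2, a mitochondrial carrier, -0.24. Fabp4, a fatty acid-binding protein and classical PPARγ target, had -2.11 at low counts (adjusted p = 0.268, edgeR). Besides the sorted gene and Lpl, which is shared with the LXR list, 0 of the tested PPAR targets passed. Over all genes tested 7.36% were called in either direction, which is near 2 of 26. The count therefore does not set this list apart from other genes.

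Among partners of PGC-1 and genes of mitochondrial biogenesis, 23 of 25 in the table were tested, 1 rose and 0 fell, with a median of -0.05. Beside this, 2.61% of all genes tested rose and 4.74% fell. Ssbp1, a binding protein of single-stranded mitochondrial DNA, rose from 93.7 ± 11.2 to 141 ± 13.5 CPM (SD, n = 5 each; log2 fold change 0.59, SE 0.16, adjusted p = 0.0351, edgeR). That call was kept in 4 of 10 fits that left out 1 library. It was lost without CD36-negative library 4, 7 or 8 or CD36-positive library 2, 3 or 7. Sirt3, the mitochondrial deacetylase, had the next smallest p, with -1.07 (adjusted p = 0.0901, edgeR). Tfam, the mitochondrial DNA packaging factor, had -0.07, Nrf1 -0.20 and Esrra, a receptor that PGC-1 coactivates, 0.16. At an unadjusted p under 0.05 there were 4 higher and 1 lower, DESeq2 called 2 higher and 1 lower, and limma voom 1 higher and 0 lower.

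Of 42 other nuclear receptors 22 were tested, 0 rose and 4 fell, with a median of 0.21. Beside this, 2.61% of all genes tested rose and 4.74% fell. At an unadjusted p under 0.05 there were 1 higher and 5 lower, DESeq2 called 0 higher and 4 lower, and limma voom 0 higher and 3 lower. Without CD36-positive libraries 1 and 3, 0 rose and 2 of 24 tested fell, with a median of -0.14. Nr4a1 and Nr4a3 are immediate-early orphan receptors. Their relative Nr4a2 had a log2 fold change of -0.04 (adjusted p = 0.988, edgeR) and did not pass. Nr4a1 was 60.8, 34.7, 40.4, 69.6 and 56.9 CPM in CD36-negative libraries and 8.75, 19.3, 0.573, 1.13 and 3.65 CPM in CD36-positive ones, so the groups did not overlap (log2 fold change -2.98, SE 0.62, adjusted p = 0.00593, edgeR). Nr4a3 was 12.4, 13.7, 13.9, 16.7 and 14.5 CPM against 5.21, 0, 1.146, 0.225 and 0.158 CPM, again without overlap (-3.51, SE 0.87, adjusted p = 0.0188, edgeR; -6.65 without CD36-positive libraries 1 and 3). Rara, retinoic acid receptor α and another partner of RXR, fell from 12.4 ± 4.2 to 2.35 ± 1.98 CPM (SD, n = 5 each; log2 fold change -2.40, SE 0.68, adjusted p = 0.0402, edgeR). Its call was kept in 3 of 10 fits that left out 1 library, being lost without any 1 of the CD36-negative libraries or CD36-positive library 1 or 7. Nr2e3, a photoreceptor-specific receptor, fell by 2.2 on the log2 scale (SE 0.63, adjusted p = 0.0420, edgeR), also kept in 3 of 10 such fits. The 18 photoreceptor markers in the table, Nr2e3 among them, summed to 148 to 1219 CPM in CD36-positive and 475 to 3031 CPM in CD36-negative libraries, and their part in its value was not tested. The glucocorticoid receptor Nr3c1 (0.49) and the vitamin D receptor Vdr (0.25) did not pass.

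Of 30 coactivators and corepressors 29 were tested and 0 passed in either direction, with a median of 0.04. Over all genes tested 7.36% passed in either direction. At an unadjusted p under 0.05 there were 2 higher and 0 lower, DESeq2 called 1 higher and 0 lower, and limma voom 0 and 0. Kat2b, the acetyltransferase PCAF, had a log2 fold change of 0.92 (adjusted p = 0.0655, edgeR), with high levels in CD36-positive libraries 1 and 3 (75.0 and 76.2 CPM) and 31.2 to 33.8 CPM in the others. Ncor1, the corepressor of unliganded receptors, had 0.18.

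Of 27 genes in the table that make or carry lipid ligands, 15 were tested, 2 rose and 1 fell, with a median of -0.39. Beside this, 2.61% of all genes tested rose and 4.74% fell. Without CD36-positive libraries 1 and 3, 2 rose and 2 fell of 17 tested, with a median of -0.65. Ch25h, the enzyme that makes 25-hydroxycholesterol, an LXR ligand, was 92.7, 69.9, 88.5, 103 and 114 CPM in CD36-negative and 196, 134, 298, 139 and 167 CPM in CD36-positive libraries. It rose without overlap, by a log2 fold change of 1.00 (SE 0.22, adjusted p = 0.0103, edgeR), and by 0.64 without CD36-positive libraries 1 and 3. Pla2g4a, the phospholipase that frees arachidonic acid, rose from 46.7 ± 13 to 81.5 ± 2.06 CPM (SD, n = 5 each; log2 fold change 0.80, SE 0.21, adjusted p = 0.0238, edgeR), a call kept in 6 of 10 fits that left out 1 library and lost without CD36-negative library 1, 2, 4 or 8. Aldh1a2, which makes retinoic acid, had 449 counts over the CD36-negative libraries and 6 over the CD36-positive ones, all 6 in CD36-positive library 1. Its fitted log2 fold change was -5.51 (SE 1.13, adjusted p = 0.00502, edgeR). Hpgds, a prostaglandin D synthase, had 0.58 (adjusted p = 0.0526, edgeR). Aldh1a2 and Rara are also known in dendritic cells, whose markers fell with them as given above, and the part of those cells was not tested.

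**Figure D4:**
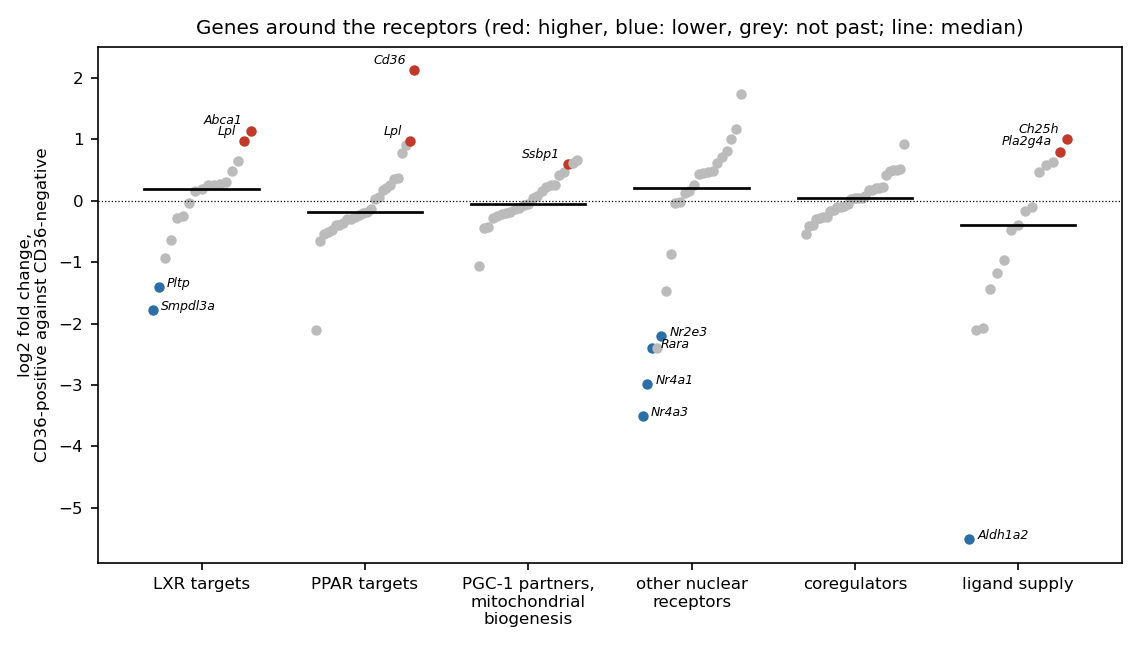
Log2 fold change, CD36-positive over CD36-negative, of each tested gene in 6 lists (LXR targets, PPAR targets, PGC-1 partners, other nuclear receptors, coregulators, ligand supply), with genes past an adjusted p of 0.05 set apart by colour and a line at each list's median. Called genes number 13 over the 6 lists, among them Cd36, the gene of the sort, and the medians lie between -0.39 and 0.21. Over all genes tested 7.36% were called.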

How the data were processed

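RNA sequencing covered 10 sorted samples of the mouse retina, 5 of each CD36 group, grouped and numbered by the description label, since titles number them differently. The deposited values were expected counts per gene symbol, not normalized, with 91.9% of them whole. Per the submitters' processing notes, fastp 0.18.0, Bowtie2 2.2.8, HISAT2 2.1.0, StringTie 1.3.1 and build mm10 were used, with no roles stated. Which program counted reads is not stated in the sources used here.

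Of 22008 lines 8 were damaged and 131 repeated an earlier line. These were dropped, leaving 21869. Some listed genes are not analysed here. No damage touched the 9 genes. Where a symbol stood on 2 lines with different values (3 symbols), 1 line kept the symbol. Expected counts were rounded, filtered with filterByExpr (minimum count 10), scaled by TMM and given to the quasi-likelihood test of edgeR 4.0.16 (glmQLFit, glmQLFTest; R 4.3.3). The model held only the group, and Benjamini-Hochberg adjustment ran over 11596 genes (threshold 0.05). The test was checked on simulated data with 200 changed genes. It recovered 32% of those changed 2-fold and 70% of those changed 4-fold, and 2.9% of its calls were false. A gene that did not pass may therefore still differ by such amounts. CPM use TMM-scaled totals, and log2 CPM a prior count of 2. Exon lengths and loci come from GENCODE on GRCm38, and promoters from RefSeq on GRCm38.p6.

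Named were the 9 genes and Cd36, list genes past the threshold with the 2 of smallest p in such a list, other list genes chosen after their values were seen, and the 3 genes most like each gene of mean log2 CPM of at least 3. The genes and lists were chosen with earlier results of these data known. Alternatives were DESeq2 1.42.0 size factors and its Wald test, limma 3.58.1 voom, other filters (none, or 10 CPM in 5 libraries), replicate blocks, covariates (genes detected, Y-linked level), other values added in the ratios, leaving out libraries, and, chosen after seeing the data, the libraries of high or of low Y-linked level alone. Labels do not say that samples came from separate animals, so p-values measure only the spread between these samples. Replicates differed by more than sampling noise (chi-square per degree of freedom 23.5 to 117 in 20 pairs). The binomial interval of Ppara and the floors cover counting error only, and PCR reads are not independent molecules. The edgeR intervals of log2 fold changes also include the spread between libraries.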

Additional observations from a re-analysis of the deposited data

Results flagged for a closer look

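Each gene's level in each group, and each ratio, was checked for a single library far from the other four by Dixon's criterion, which chance meets in about 1 group in 20. There were 26 such groups and 6 lone values. In CD36-positive cells, Rxra was 14.5 CPM in library 1 against 24.7 to 27.1 CPM in the others. Ppard was 31.5 CPM in the same library against 9.37 to 13.8 CPM, so the lowest Rxra and the highest Ppard fell in the library of least depth. Ppara was 3.15 CPM in CD36-positive library 3 against 0 to 0.790 CPM in the others. Ppargc1a was 5.65 CPM in CD36-positive library 2 against 0 to 1.12 CPM. In CD36-negative cells, Rxrb was 57.5 CPM in library 4 against 43.0 to 45.5 CPM. The log2 ratio of Nr1h3 to Nr1h2 was -1.70 in CD36-negative library 2, against -3.65 to -3.26 in the others.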

How the results depend on the processing

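Nr1h2 kept its direction in all 22 alternatives and its call in the 20 planned ones (-1.28 to -0.78 over all), losing the call in the subsets of high and low Y-linked level, which hold 5 libraries each. The number of the 9 genes called lower, 1, was 3 by DESeq2's Wald test and 0 in either subset. It stayed at 1 whichever library was left out, and 0 were called higher under any alternative run. Ppargc1b turned direction without CD36-positive libraries 1 and 3 (-0.00139, adjusted p = 0.999, edgeR) and within the libraries of low Y-linked level (-0.91). Nr1h3 and Pparg passed only with DESeq2.

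Over all genes, 303 were called higher: 533 by DESeq2's Wald test, 184 with the replicate block by description numbers, 188 without CD36-positive libraries 1 and 3, 33 and 137 within the high and low Y-linked subsets, and 132 to 380 with 1 library left out. The 550 called lower became 215 in the high Y-linked subset and 422 to 583 with 1 library left out. The 13 called genes of the 6 lists, Cd36 among them, became 2 in that subset and 9 to 16 with 1 library left out. The cause of these shifts was not tested. The subsets and the fits that left libraries out held fewer libraries, while DESeq2's Wald test and the replicate block used all of them.

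With a replicate block over the 4 description numbers shared by both groups, the differences in log2 ratio were 1.04 for Rxra to Rxrb and 1.94 for Ppargc1b to Ppargc1a. Both gave p = 0.125 by an exact sign-flip test, the smallest that 4 pairs allow. With 1 library left out they ran from 0.70 to 0.97 and from 2.03 to 3.78. Same-numbered libraries correlated at 0.029 to 0.133 in their deviations (description numbers) and -0.021 to 0.133 (title numbers). Other pairs ran from -0.198 to 0.124 under either numbering. By description, numbers 1 and 2 were of high Y-linked level in both groups, and numbers 4 and 7 of low level. The labels do not say that a number marks a shared animal, so the main fit held no pairing. Whether the libraries are paired was not settled. Depth limits Ppara and Ppargc1a, which lay near the floor of 3 counts in several libraries.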

Other observations

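Rxrg, the third RXR gene and in the retina known from cone photoreceptors, was 2.15, 3.02, 2.05, 8.56 and 6.35 CPM in CD36-negative libraries 1, 2, 4, 7 and 8 and 0, 0.113, 0.860, 2.93 and 3.88 CPM in CD36-positive libraries 1, 2, 3, 4 and 7. The groups overlapped and the log2 fold change of -1.47 did not pass (adjusted p = 0.395, edgeR). In both groups the libraries of the highest Rxrg levels were among those of low Y-linked level. CD36-negative library 4, also of low Y-linked level, had the lowest Rxrg level of its group (2.05 CPM).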
